A study of Mus musculus with 8 samples.

Results

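Apolipoproteins are the protein part of the particles that carry lipid in blood. The 10 genes described here are Apoa1, Apoa2, Apoa4, Apoa5, Apob, Apoc1, Apoc2, Apoc3, Apoe and Apom. They were chosen by name, with every probe set that the array annotation gives to exactly 1 of these symbols, which came to 15 probe sets, and they are 10 of the 12393 genes measured. Liver RNA was hybridised to Affymetrix mouse expression arrays, with 4 arrays of SIRT7 KO and 4 of WT liver. SIRT7 is a histone deacetylase, and the study uses SIRT7-deficient mice as a model of fatty liver disease that arises on chow diet. Both groups are labelled by genotype alone, and neither the age, sex, litter nor strain of the arrays' mice is stated in the sources used here. The sample titles give liver, genotype and a number, and do not name the mice. Where arrays of a group stem from separate mice, p-values measure the spread between these mice.

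The liver makes most of these proteins. Apob forms the backbone of VLDL, the particle that exports triglyceride, and Apoa1 and Apoa2 are the main proteins of HDL. Apoc2 activates lipoprotein lipase, which releases fatty acids from the particles, whereas Apoc3 inhibits it, Apoa5 favours it, and Apoe is the ligand by which remnants are taken up. Apoa4 is made mainly by the intestine in humans and by both intestine and liver in mice, and is known for its association with triglyceride secretion. The genes lie in clusters in the mouse genome: on chromosome 9 the order is Apoa1, Apoc3, Apoa4 and Apoa5, and on chromosome 7 it is Apoc2, Apoc4, Apoc1 and Apoe. Apoa2 lies on chromosome 1, Apob on chromosome 12 and Apom on chromosome 17.

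The promoters of the genes that passed the test described below are shown here beside that of a close neighbour that did not. They are the 250 bases before the annotated start site, from RefSeq on GRCm38.p6, at chr9:46240594-46240843 on the plus strand for Apoa4, chr7:19677942-19678191 on the minus strand for Apoc2 and chr9:46228380-46228629 on the plus strand for Apoa1. Capitals mark matches to 5 motifs that were chosen after the promoters had been seen. On both strands, these were CAAAGTNCA, bound by HNF4A, AGGTCA, a nuclear receptor half-site, TGACGTCA, the cAMP response element, TGATGCAA, an ATF4-type element, and TATAAA, the TATA box.
Apoa4: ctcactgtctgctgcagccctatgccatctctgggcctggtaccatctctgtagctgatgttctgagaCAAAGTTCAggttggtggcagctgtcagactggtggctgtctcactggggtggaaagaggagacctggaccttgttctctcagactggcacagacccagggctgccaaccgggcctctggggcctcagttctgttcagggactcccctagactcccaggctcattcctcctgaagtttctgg
Apoc2: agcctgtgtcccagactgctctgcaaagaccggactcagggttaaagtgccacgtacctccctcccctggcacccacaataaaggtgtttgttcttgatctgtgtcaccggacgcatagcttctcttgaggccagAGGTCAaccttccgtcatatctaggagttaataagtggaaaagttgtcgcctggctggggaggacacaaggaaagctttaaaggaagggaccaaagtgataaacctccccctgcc
Apoa1: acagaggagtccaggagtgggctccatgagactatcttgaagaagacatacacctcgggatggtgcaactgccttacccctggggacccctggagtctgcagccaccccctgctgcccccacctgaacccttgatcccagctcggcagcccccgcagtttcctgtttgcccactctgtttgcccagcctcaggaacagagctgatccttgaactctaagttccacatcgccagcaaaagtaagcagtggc
CAAAGTTCA stood 182 to 174 bases upstream in Apoa4, on the plus strand, and 1.19% of 32851 promoters of that length held the motif. AGGTCA stood 115 to 110 bases upstream in Apoc2, a motif found in 14% of all promoters. It was also present in genes that did not pass the test. It stood 25 to 20 bases upstream in Apoc4 and, on the minus strand, 238 to 233 bases upstream of a further annotated start of Apoa2. Apoa1 held none of the 5 motifs. TATAAA, present in 12.4% of all promoters, was found in Apoa2, Apoa5, Apob and Apoe, which did not pass the test. A match describes letters and does not show that a factor binds there. Likewise, a missing match to these exact letters, as in Apoa1, does not show that a binding site is absent. Promoter sequences were matched for 8 of the 10 genes, all but Apoc1 and Apoc3.

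The array data were first set against the labels. Sirt7 had log2 values of 4.73, 4.53, 4.40 and 4.90 on the SIRT7 KO arrays, against 8.98, 8.97, 8.88 and 8.57 on the WT arrays, a difference of -4.21 ± 0.13 (SE, limma adjusted p = 9.2e-07). Array medians ran from 6.30 to 6.36, and the median correlation with the other arrays of a group lay between 0.990 and 0.994. The first principal component held 28.0% of the variance. On it, SIRT7 KO arrays 1 and 2 lay at -23.9 and -20.0, and SIRT7 KO arrays 3 and 4 at -5.80 and -4.89. WT array 4 lay at 34.5, against 2.10 to 11.2 for the other WT arrays. On the second principal component, with 22.6% of the variance, SIRT7 KO arrays 3 and 4 (-24.4 and -19.4) and WT array 4 (-10.7) lay apart from the other 5 arrays (1.52 to 19.0). A further measure moved with genotype, since the 3' minus 5' log2 difference of the GAPDH controls was 0.11 ± 0.082 in SIRT7 KO and 0.22 ± 0.055 in WT livers (SD, n = 4 each, exact two-sided permutation p = 0.0286, the smallest that 4 against 4 arrays allow). The 45 spike-in control probe sets also averaged lower, with 8.52 ± 0.098 in SIRT7 KO and 8.68 ± 0.063 in WT livers (SD, n = 4 each, exact permutation p = 0.0286). The part of these values in the results was not tested. Markers of hepatocytes checked the tissue: 8 of 10 were measured, Alb had a mean log2 value of 15.22 in both genotypes, and all 8 lay above the median of the array. None of them passed the test, with a median difference of -0.11 and the smallest p for Ahsg, fetuin-A (-0.23, limma adjusted p = 0.175), while their summed linear signal lay between 185795 and 194353 on the SIRT7 KO arrays and between 197348 and 201719 on the WT arrays, without overlap.

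Among the 10 apolipoproteins, Apoa4 and Apoc2 were higher in SIRT7 KO livers, none was lower, and 8 genes did not pass the threshold, an adjusted p under 0.15. By probe set, 3 of 15 were higher and 0 lower, where 1.92% of all 22626 probe sets were higher. By gene, 2 of 10 were higher, where 2.17% of all genes were higher. At an adjusted p under 0.05, 2 probe sets, both of Apoa4, passed, where 0.689% of all probe sets did so in either direction. The median log2 difference over the 10 genes was 0.0019, beside -0.0031 over all genes. The plot of differences with their intervals shows this contrast between the genes that moved and those that lay close to 0.

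**Figure D1:**
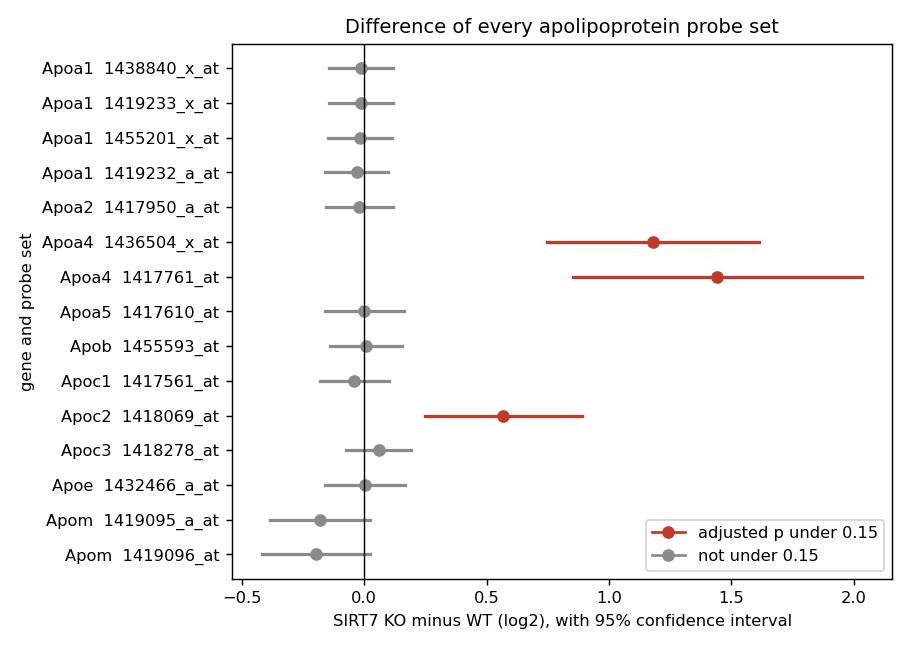
Log2 difference, SIRT7 KO minus WT, of each of the 15 probe sets, with the 95% interval of the limma fit; red marks an adjusted p under 0.15. Apoa4 (1.18 and 1.44) and Apoc2 (0.57) lie to the right of 0, the Apom probe sets (-0.18 and -0.20) to the left, and the other 10 between -0.04 and 0.059.

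Apoa4 showed the largest difference of the family. The brighter of its probe sets, 1436504_x_at, read log2 values of 14.67, 14.60, 14.28 and 13.84 on the SIRT7 KO arrays, against 13.19, 12.91, 13.51 and 13.06 on the WT arrays. All SIRT7 KO arrays lay above all WT arrays, and SIRT7 KO arrays 1 and 2 lay highest. Means were 14.35 ± 0.38 in SIRT7 KO and 13.17 ± 0.26 in WT livers (SD, n = 4 each), a difference of 1.18 ± 0.19 (SE, 95% interval 0.75 to 1.61), or 2.27-fold (limma adjusted p = 0.042). The suffix _x_at means that some of its probes can also match other transcripts, so a second probe set is informative.

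That second probe set, 1417761_at, read 14.43, 14.29, 13.75 and 13.25 in SIRT7 KO livers, against 12.56, 12.30, 12.94 and 12.14 in WT livers. Again the groups did not overlap, and SIRT7 KO arrays 1 and 2 were the highest. Its difference was 1.44 ± 0.26 (SE, 95% interval 0.85 to 2.04), or 2.72-fold (limma adjusted p = 0.0495). Both probe sets passed without any single array, with differences of 1.07 to 1.35 and 1.28 to 1.67 and adjusted p of at most 0.121 and 0.138. Without SIRT7 KO arrays 1 and 2, which had the highest values, the differences were 0.89 (adjusted p = 0.141) and 1.01 (adjusted p = 0.156), so that the second no longer passed. Without SIRT7 KO arrays 3 and 4, which stood apart on the second principal component but also had the lowest Apoa4 of their group, they were 1.47 and 1.87, values that this choice of arrays raises by construction.

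Since Apoa4 is also an intestinal gene, markers of intestinal epithelium were examined. Of 6 measured markers of 8, 0 passed the test, 4 lay in the lowest quartile of brightness, and the median difference was 0.064, with the smallest p for Vil1, villin (-0.25, limma adjusted p = 0.279). Their summed linear signal was 2015 to 5288 in SIRT7 KO and 2143 to 3113 in WT livers. Fabp2, the intestinal fatty acid binding protein and the brightest of them, read 12.17, 12.34, 10.96 and 10.89 in SIRT7 KO livers, against 11.55, 10.99, 11.42 and 11.21 in WT livers. It was highest on the SIRT7 KO arrays with the highest Apoa4 (1 and 2), lay below all WT arrays on SIRT7 KO arrays 3 and 4, and made up most of the summed signal. Its mean over the 8 arrays was 11.44, whereas the other 5 markers lay below the median of the array. None of those 5 was higher on both SIRT7 KO arrays 1 and 2 than on arrays 3 and 4. The Fabp2 difference was 0.29 ± 0.33 (SE, limma adjusted p = 0.745). The part of this in the Apoa4 result was not tested.

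Apoc2 was the other apolipoprotein that passed. Its single probe set, 1418069_at, read 13.42, 13.34, 13.07 and 12.95 in SIRT7 KO livers, against 12.51, 12.39, 12.67 and 12.94 in WT livers. The groups did not overlap, but SIRT7 KO array 4 lay above WT array 4 by only a narrow margin (12.9484 against 12.9423). Means were 13.20 ± 0.22 in SIRT7 KO and 12.63 ± 0.24 in WT livers (SD, n = 4 each), a difference of 0.57 ± 0.14 (SE, 95% interval 0.25 to 0.89), or 1.48-fold (limma adjusted p = 0.11). The call depended on single arrays: it passed only without WT array 4 (0.67, adjusted p = 0.0726), and leaving out any other single array moved the difference to between 0.49 and 0.65 and ended the call, with an adjusted p of up to 0.254. In all, 3 of 15 probe sets had groups that did not overlap with SIRT7 KO higher, namely those of Apoa4 and Apoc2, where 3.79% of all probe sets did.

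Macrophages also express Apoe and C-type apolipoproteins of the chromosome 7 cluster, Apoc2 among them. Of the macrophage markers, 0 of 11 measured passed the test. All 11 had positive differences, where 49.3% of all genes did, from 0.014 for Clec4f to 0.66 for Lyz2, lysozyme. The median was 0.23, beside -0.0031 over all genes, and Lyz2 had the smallest p (limma adjusted p = 0.352). Markers rose together on single arrays, as Lyz2 and Cd68 did on WT array 2, so the 11 are not separate observations. Their summed signal overlapped, with 9666 to 16509.6 in SIRT7 KO and 7481 to 16825 in WT livers. The part of macrophages in the Apoc2 difference was not tested. In tissue RNA, moreover, a different number of cells of a type and a different amount of RNA per cell cannot be told apart.

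**Figure D2:**
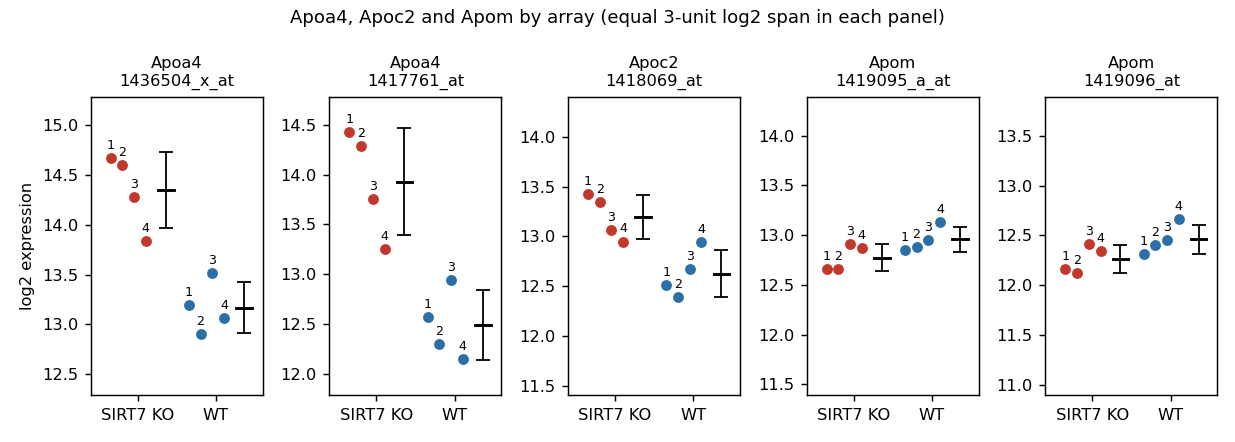
Log2 value of Apoa4, Apoc2 and Apom on each array (points, numbered by array), with mean and SD beside them, SIRT7 KO left and WT right; each panel spans 3 log2 units. Apoa4 and Apoc2 do not overlap between genotypes, and the Apom values do.

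Apom, a lipocalin of HDL that carries sphingosine 1-phosphate, was the only other gene whose difference exceeded 0.1 in size. Its brighter probe set, 1419095_a_at, had log2 values of 12.66, 12.66, 12.91 and 12.87 in SIRT7 KO livers, against 12.85, 12.89, 12.96 and 13.13 in WT livers. The groups overlapped, and the difference of -0.18 ± 0.091 (SE, 95% interval -0.39 to 0.022) did not pass (limma adjusted p = 0.399). The second, 1419096_at, read 12.26 ± 0.14 in SIRT7 KO and 12.46 ± 0.15 in WT livers (SD, n = 4 each), a difference of -0.20 ± 0.098 (SE, limma adjusted p = 0.399).

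The remaining HDL proteins lay close together in the genotypes. Apoa1 is measured by 4 probe sets with differences of -0.030 to -0.013. Its brightest, 1438840_x_at, read 14.97 in SIRT7 KO and 14.98 in WT livers (limma adjusted p = 0.945), whereas 1419232_a_at read 14.69 in SIRT7 KO and 14.72 in WT livers (limma adjusted p = 0.861). Apoa2 read 14.89 in SIRT7 KO and 14.91 in WT livers, a difference of -0.019 ± 0.060 (SE, limma adjusted p = 0.92).

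Apart from Apoc2, described above, the same held for the core and the lipase regulators of triglyceride-rich particles. Apob differed by 0.0056 ± 0.065 (SE), with 14.34 in SIRT7 KO and 14.33 in WT livers (limma adjusted p = 0.981). Apoc3, the lipase inhibitor, had the highest positive difference of those that did not pass, 0.059 ± 0.059 (SE, 95% interval -0.073 to 0.19), with 14.60 in SIRT7 KO and 14.54 in WT livers (limma adjusted p = 0.707). Apoa5, which opposes it, differed by 0.0012 ± 0.072 (SE, 95% interval -0.16 to 0.16). Apoc1, an inhibitor of remnant uptake, differed by -0.040 ± 0.063 (SE, 95% interval -0.18 to 0.10).

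Apoe was likewise even. It read 14.70, 14.66, 14.58 and 14.48 in SIRT7 KO livers, against 14.65, 14.54, 14.68 and 14.53 in WT livers, with overlapping groups and a difference of 0.0025 ± 0.073 (SE, limma adjusted p = 0.992). Together these 7 genes with 10 probe sets had differences between -0.04 and 0.059, and the 95% intervals of all 10 lay within -0.18 and 0.19. Changes of this size are therefore the largest that the intervals allow on the array scale.

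These transcripts are among the brightest on the array, which bears on the scale. All 15 probe sets lay at or above the 97.4th percentile of mean log2 values, and 11 of them, from 8 genes, lay in the brightest 1%. The highest value of an array was 15.22 to 15.36, and Apoa1 lay only 0.33 to 0.60 below it on average, against 2.39 for Apoc2 and 1.55 and 2.10 for Apoa4. In the brightest 1%, 8 of 227 probe sets were called in either direction, or 3.52%. Among all 22626 probe sets, 975 were called in either direction, a somewhat larger share. Apoa4 had the largest positive difference in the brightest 1%. The median size of difference was 0.092 over all probe sets, 0.085 in the brightest 1% and 0.068 among the 74 probe sets with a mean above 14. None of these 74 differed by 1 or more, and their differences ran from -0.27 to 0.23. Fluorescence near the top of the scale responds less than in proportion to RNA, and whether this reduced the differences of Apoa1, Apoa2, Apob, Apoc1, Apoc3 or Apoe was not tested.

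**Figure D3:**
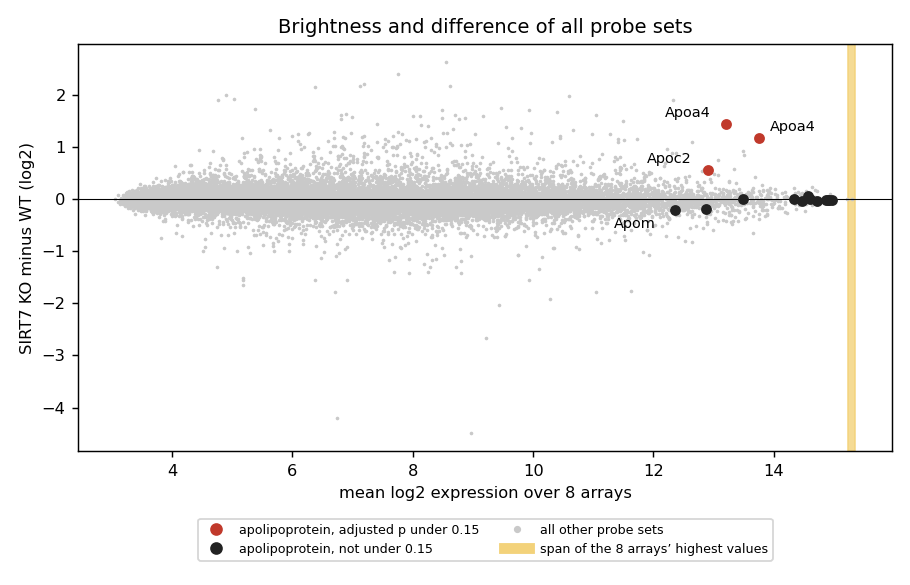
Mean log2 value of every probe set against its log2 difference, SIRT7 KO minus WT; the 15 apolipoprotein probe sets are marked and the band is the span of the highest value of the arrays (15.22 to 15.36). Apoa4 stands above the other bright probe sets, and the Apoa1 probe sets lie nearest the band.

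Set against neighbours in the same cluster, within each array, log2 Apoa4 minus log2 Apoa1 was 1.19 higher in SIRT7 KO than in WT livers, that against Apoc3 1.12 higher and that against Apoa5 1.18 higher. In the chromosome 7 cluster, log2 Apoc2 was higher in SIRT7 KO livers by 0.61 against Apoc1, by 0.57 against Apoe and by 0.57 against Apoc4, which itself read 13.61 in both genotypes. These pairs were chosen after the values had been seen and restate the differences above, so they are given as a description with no test. Apoa1, Apoc3, Apoc1 and Apoe lie near the top of the scale, as described above.

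SIRT7 KO arrays 1 and 2 both lay above arrays 3 and 4 in 7 of the 10 genes, namely Apoa2, Apoa4, Apoa5, Apob, Apoc1, Apoc2 and Apoe, or 8 of 15 probe sets, where 23.4% of all probe sets did so. They lay below in Apoc3 and Apom, 3 probe sets, where 21.4% of all did so. This is a split within 1 genotype, and no label accounts for it.

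The genes whose log2 values followed Apoa4 most closely over the 8 arrays, among 6922 genes above the median brightness, were Gpx4 (Pearson r = 0.965), Atpif1 (0.960), Comtd1 (0.959), Abhd4 (0.958) and Elovl2 (0.956). They are a description over arrays that share the genotype contrast, with no test. Gpx4 reduces lipid peroxides and Elovl2 elongates polyunsaturated fatty acids. Within genotype, r was 0.89, 0.83, 0.90, 0.79 and 0.86 in the same order. Their log2 differences were 0.41, 0.41, 0.72, 0.52 and 0.58, a direction that the choice by likeness to Apoa4 fixes.

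Most of the genes that build, remodel and take up the particles did not pass the test. Some that did not pass still had large differences in either direction. Examples are the receptor Cd36 (1.37, limma adjusted p = 0.181) and the lipase regulator Angptl8 (-1.42, limma adjusted p = 0.237). Of 16 assembly and secretion genes, 1 was higher and 1 lower, where 2.17% and 2.48% of all genes were higher and lower. P4hb, a subunit of the microsomal triglyceride transfer protein and a disulphide isomerase of the ER, had log2 values of 13.65, 13.64, 13.63 and 13.66 in SIRT7 KO livers, against 12.98, 12.97, 13.04 and 13.20 in WT livers. It was higher by 0.59 ± 0.069 (SE, limma adjusted p = 0.014), with very little spread among the SIRT7 KO arrays, and passed without any single array. Mttp, its lipid-transferring partner, read 11.75, 11.41, 11.56 and 11.80 in SIRT7 KO livers, against 11.33, 11.36, 11.51 and 11.49 in WT livers, and its difference of 0.21 ± 0.097 (SE) did not pass (limma adjusted p = 0.372). Mia3, which helps to load large cargo at ER exit sites, was lower by a difference of -0.29 ± 0.076 (SE, limma adjusted p = 0.127) and passed in only 1 of 8 cases with an array left out, with an adjusted p of up to 0.271.

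Of the 10 measured lipases, their regulators and HDL enzymes, 0 were higher and 2 lower, where 2.17% and 2.48% of all genes were higher and lower, with a median difference of -0.18. Gpld1, a phospholipase carried on HDL, differed by -0.61 ± 0.13 (SE, limma adjusted p = 0.076) and passed in 4 of 8 cases with an array left out, up to 0.198. Pon1, the paraoxonase of HDL, differed by -0.32 ± 0.090 (SE, limma adjusted p = 0.139) and passed in 2, up to 0.296. Lpl, the lipase that Apoc2 activates, differed by 0.82 and did not pass (limma adjusted p = 0.288). Of 14 receptors and their regulators, 0 were higher and 1 lower, against the same background, the scavenger receptor Stab1 (-0.30 ± 0.081 SE, limma adjusted p = 0.132), which passed in 1 of 8 cases with an array left out, up to 0.265.

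Of 30 measured transcription regulators of apolipoprotein genes, 0 were higher and 2 lower, where 2.17% and 2.48% of all genes were, with a median of -0.15 and 6 positive differences, where 49.3% of all genes had a positive one. Foxa3, a liver forkhead factor, had log2 values of 9.35, 9.82, 9.66 and 10.01 in SIRT7 KO livers, against 10.08, 10.48, 10.57 and 10.60 in WT livers, without overlap. It differed by -0.72 ± 0.16 (SE, limma adjusted p = 0.076) and lost the call only without WT array 2 (0.155). Prox1, a homeobox factor of hepatocytes and lymphatic endothelium, differed by -0.52 ± 0.11 (SE, limma adjusted p = 0.072), at the low level of 4.86 in SIRT7 KO and 5.39 in WT livers, and passed in 5 of 8 cases with an array left out, up to 0.189. Creb3l3, an ER-anchored activator of Apoa4 and Apoc2, differed by 0.044 ± 0.10 (SE, limma adjusted p = 0.887), and Hnf4a, an activator of much of the family, by -0.27 (limma adjusted p = 0.305).

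The last 3 lists held no call: 0 of 10 LXR targets of lipid transport, with a median of 0.012 and the smallest p for Abcg8 (-0.24, limma adjusted p = 0.386), 0 of 4 genes of Apob mRNA editing, with Apobec1, the deaminase that edits Apob mRNA, at 0.57 ± 0.17 (SE, limma adjusted p = 0.151), and 0 of 14 other apolipoproteins and HDL-associated proteins, with Pcolce at 0.43 (limma adjusted p = 0.154).

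**Figure D4:**
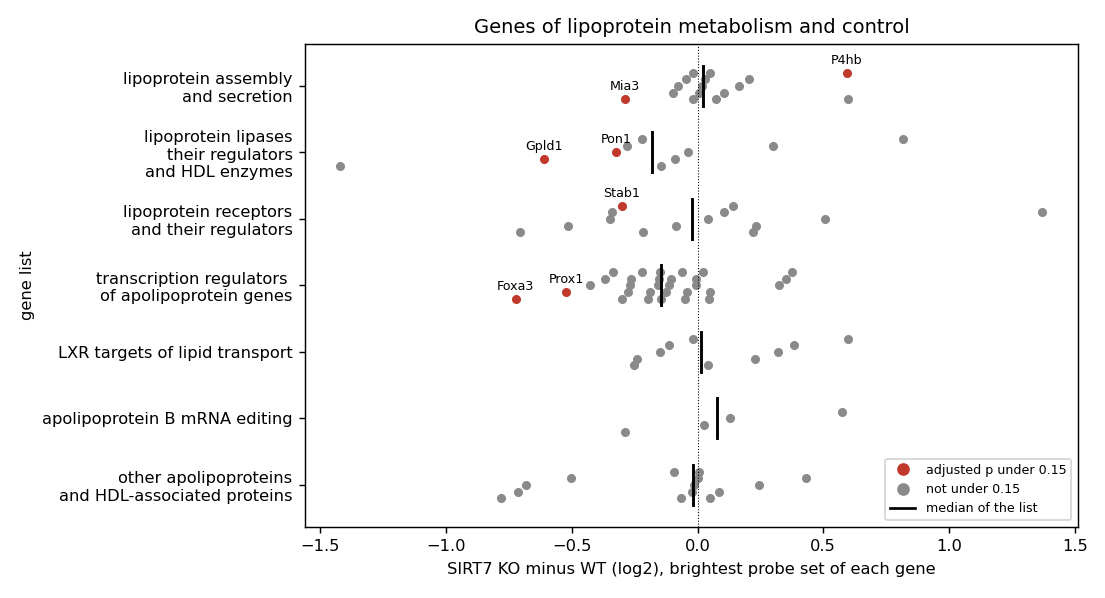
Log2 difference, SIRT7 KO minus WT, of each measured gene in 7 lists (points; red, adjusted p under 0.15; black line, median of the list). P4hb (0.59) is the 1 called gene above 0 in these lists, and the medians of the lipase and transcription regulator lists lie at -0.18 and -0.15.

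Other markers gave the following counts, where 2.17% of all genes were higher and 2.48% lower. Of 8 stellate cell markers 1 was higher, Dcn, decorin (0.41, limma adjusted p = 0.103; it passed in 2 of 8 cases with an array left out), and of 7 endothelial markers 1 was higher, Lyve1, a hyaluronan receptor of sinusoids (1.21, limma adjusted p = 0.046; it passed in 8 of 8). Of 8 pericentral hepatocyte markers 3 were lower, Slc1a2 (-0.93, limma adjusted p = 0.06; it passed in 6 of 8), Lect2 (-0.36, limma adjusted p = 0.069; it passed in 6 of 8) and Cyp1a2 (-0.54, limma adjusted p = 0.098; it passed in 2 of 8), and of 5 periportal markers 1 was lower, Hal, histidine ammonia-lyase (-0.77, limma adjusted p = 0.054; it passed in 7 of 8). The called markers do not stand for their lists. Differences were positive in 7 of 8 stellate cell and 4 of 7 endothelial markers, with medians of 0.23 and 0.056. They were positive in 2 of 8 pericentral and 2 of 5 periportal markers, with medians of -0.093 and -0.075. Among all genes, 49.3% were positive. Of 5 cholangiocyte markers none passed, with Epcam at 0.19, and of 4 pancreas markers none, with Ins2 at 0.12. The part of these cell types in the apolipoprotein values was not tested.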

How the data were processed

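The authors deposited 1 table of log2 values per probe set and array, normalized between arrays and summarised over probes. The study's methods name RMA and the submitters' processing notes GCRMA; which of them made the table is unknown here, with its version not given in the sources used here. Values were used as deposited. Of 22690 probe sets, 64 controls were left out and 22626 tested, of which 20380 had 1 symbol, 691 several and 1555 none; 20351 matched a gene of GRCm38.p6 by Entrez ID. A gene was taken by its brightest probe set.

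Genotypes were compared by limma 3.58.1 in R 4.3.3 (lmFit and eBayes, genotype only, two-sided, Benjamini-Hochberg over all probe sets, called at an adjusted p under 0.15 after the study's methods). The script was tested on simulated data. The 4 arrays per group limit the precision.

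Named were all 10 members, Sirt7, up to 4 called genes of each list or else the 1 with the smallest p, and the 5 genes most alike Apoa4. A few further list members (Mttp, Lpl, Cd36, Angptl8, Creb3l3, Hnf4a, Fabp2, Alb, Apoc4) were named after their values were seen. Members and lists were chosen with earlier results of these data known. Alternatives were a threshold of 0.05, trended and robust variance, array weights, further quantile normalization, median centring, bright probe sets only, the replicate number as a block, the mean over probe sets and each array left out; leaving out a pair of SIRT7 KO arrays was added after seeing the data.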

Additional observations from a re-analysis of the deposited data

How the results depend on the processing

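Apoa4 kept its direction and its call by its brighter probe set under every alternative run, and no apolipoprotein was called lower in any. Under the threshold of 0.05, with the replicate number as a block and without SIRT7 KO arrays 1 and 2, 1 of the 10 genes was called in place of 2, and without those arrays 1 probe set in place of 3. With single arrays left out, 1 to 2 genes and 2 to 3 probe sets were called, and 222 to 900 of all probe sets in place of 975. That total was 156 at 0.05, 628 with the block, 332 without SIRT7 KO arrays 3 and 4 and 417 without arrays 1 and 2. The labels give same-numbered arrays no link but the number. Their deviations from the group means correlated at 0.26, -0.25, -0.16 and 0.15, which cannot decide whether these arrays were paired. With the block Apoc2 differed by 0.57 (limma adjusted p = 0.224), and without SIRT7 KO arrays 1 and 2 by 0.38 (adjusted p = 0.358).

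Signs changed only among differences near 0. Apoe became -0.012 with array weights, -0.043 with further quantile normalization, -0.0020 with median centring and -0.071 without SIRT7 KO arrays 1 and 2. Apoa1 1455201_x_at became 0.0090 with quantile normalization, and Apoa5 -0.0032 with centring. Without SIRT7 KO arrays 1 and 2, Apoa5 became -0.046 and Apob -0.028, and without arrays 3 and 4, Apoa2 became 0.027 and Apoc1 0.0027. With single arrays left out, Apoa1 ran from -0.028 to 0.0025 (1438840_x_at) and from -0.030 to 0.0015 (1419233_x_at), Apoa5 from -0.026 to 0.050, Apob from -0.022 to 0.044 and Apoe from -0.028 to 0.043. The cause was not tested. Of the 13 called genes named from the lists, 2 passed at 0.05, 9 with the block, 11 each with quantile normalization and with centring, and 3 each without SIRT7 KO arrays 3 and 4 and without arrays 1 and 2, with 0 reversed. Apobec1 passed with the block (adjusted p = 0.137) and with quantile normalization (0.148). Brightness limits the reading of the genes near the top of the scale.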
